A study of Mus musculus with 2 samples.

Results

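The interferon-state barcodes are 1268 of the 18964 single-cell barcodes deposited for subcutaneous tumours of 4T1, a mouse mammary carcinoma line. They were chosen by a rule on the counts. A barcode had to hold at least 10000 unique molecular identifiers (UMIs, one per counted RNA molecule), at most 20% mitochondrial UMIs, under 100 CPM (counts per 1000000 UMIs) of the leukocyte gene Ptprc, and under 0.5% of its UMIs from Col1a1 and Col1a2. The 5829 barcodes that passed are called Ptprc-low here. Each was ranked by the summed CPM of 4 gene sets: hypoxia (Ndrg1, Ankrd37, Ero1l, Bnip3), matrix (Cilp, Tnc, Postn, H19), cycling (Mki67, Top2a, Cenpf, Birc5) and interferon (Isg15, Ifit3, Gbp2, Zbp1). A barcode was kept when its interferon rank was the highest of the 4. This gave 465 of 10002 barcodes in the treated library and 803 of 8962 in the PBS library.

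The treated library came from tumours of mice given phototherapy mediated by AIE COF, a covalent organic framework, and the PBS library from mice given PBS. Both carried established 4T1 tumours, and the protocol given for both places collection on day 7 after phototherapy. Whole tumours were made into single-cell suspensions. The labels give the strain as C57BL/c, which was not resolved here, although 4T1 is known as a BALB/c line. The sources used here do not say how many animals or tumours are behind each library. With 1 library per group no difference has a replicate check, and intervals in the text are exact 95% intervals that cover counting error only.

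Interferons are secreted cytokines that most nucleated cells can answer. Type I interferons act through the receptor chains Ifnar1 and Ifnar2 and a complex of transcription factors that includes Stat2 and Irf9, which binds the interferon-stimulated response element (ISRE). Interferon gamma acts through Ifngr1 and Ifngr2, and factors activated there bind the gamma-activated site (GAS). In tumours these responses are known for antiviral genes, antigen presentation, T-cell chemokines and the checkpoint ligand Cd274.

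Promoter sequences of the genes that define and lead the state are shown with letter matches to these elements. A window without a match may still hold an element with other letters. Each is the 250 bases upstream of the RefSeq start on the GRCm38.p6 build, written along the gene's strand. Capitals mark matches to the ISRE letters, searched on both strands as GAAA, any 2 bases and GAAA again, and no GAS match (TTCNNNGAA, which reads alike on both strands) was found in these windows. The table used held 3 of the 4 rule genes, and Zbp1 is only named. Isg15, Ifit3 and Gbp2 are rule genes. Cxcl9, Rsad2 and Ifit1 stood highest among the other genes in the ranking of genes higher in the state at 20 CPM or more, and above Isg15 and Gbp2.
Isg15 (chr4:156200819-156201068, minus strand): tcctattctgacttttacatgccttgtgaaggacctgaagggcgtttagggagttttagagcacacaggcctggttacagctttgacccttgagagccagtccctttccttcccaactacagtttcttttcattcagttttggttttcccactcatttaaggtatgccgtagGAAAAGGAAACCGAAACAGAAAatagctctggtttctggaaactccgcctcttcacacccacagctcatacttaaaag
Ifit3 (chr19:34583279-34583528, plus strand): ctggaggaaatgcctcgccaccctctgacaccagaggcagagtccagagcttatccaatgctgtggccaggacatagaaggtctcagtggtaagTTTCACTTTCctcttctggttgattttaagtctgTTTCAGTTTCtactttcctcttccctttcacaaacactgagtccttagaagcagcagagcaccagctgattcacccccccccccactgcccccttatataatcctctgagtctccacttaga
Gbp2 (chr3:142620413-142620662, plus strand): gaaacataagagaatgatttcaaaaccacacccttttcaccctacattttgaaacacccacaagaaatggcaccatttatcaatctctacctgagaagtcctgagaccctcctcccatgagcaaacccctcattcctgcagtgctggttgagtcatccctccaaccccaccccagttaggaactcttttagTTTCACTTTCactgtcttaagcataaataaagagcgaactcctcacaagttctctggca
Cxcl9 (chr5:92328080-92328329, minus strand): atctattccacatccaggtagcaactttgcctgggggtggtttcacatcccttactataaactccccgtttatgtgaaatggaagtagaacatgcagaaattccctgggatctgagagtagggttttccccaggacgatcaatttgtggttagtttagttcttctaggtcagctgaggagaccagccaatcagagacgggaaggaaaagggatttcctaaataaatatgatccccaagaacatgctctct
Rsad2 (chr12:26456453-26456702, minus strand): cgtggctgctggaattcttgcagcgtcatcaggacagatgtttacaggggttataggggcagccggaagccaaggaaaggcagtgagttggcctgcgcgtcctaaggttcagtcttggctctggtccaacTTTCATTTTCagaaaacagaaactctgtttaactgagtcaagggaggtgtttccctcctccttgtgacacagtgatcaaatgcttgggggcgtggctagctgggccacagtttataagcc
Ifit1 (chr19:34640639-34640888, plus strand): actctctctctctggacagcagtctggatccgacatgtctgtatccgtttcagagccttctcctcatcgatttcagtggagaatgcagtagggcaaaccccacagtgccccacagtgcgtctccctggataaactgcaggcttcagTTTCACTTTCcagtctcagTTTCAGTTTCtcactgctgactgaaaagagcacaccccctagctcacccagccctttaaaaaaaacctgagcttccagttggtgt
The Isg15 window held 3 overlapping ISRE matches between 78 and 57 bases before the start. Ifit3 and Ifit1 held 2 each, Gbp2 and Rsad2 held 1 each, and Cxcl9 held none.

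Across promoters, the ISRE letters were more frequent among genes higher in the state. Among genes at least 1.5-fold higher in the state in both libraries, 37 of 168 with a promoter entry (22.02%) held a match, against 289 of 8897 tested genes (3.25%) and 936 of 27025 genes in the whole table (3.46%). Genes at least 1.5-fold lower held it in 2 of 116 cases (1.72%). GAS letters were found in 18 of 168 (10.7%) of the higher genes and 6.81% of tested genes. Of the interferon-induced GTPases with an entry, 8 of 9 held ISRE letters and 6 of 9 GAS letters. The higher genes include the rule genes Isg15, Ifit3 and Gbp2, which chose the barcodes and all hold ISRE letters. The lower genes likewise include genes of the hypoxia and cycling rules. No share was taken without them. These are letter matches and were given no test.

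The label of these barcodes as tumour cells was checked against marker genes. Epithelial markers were close to 0: Krt8 had 1 UMI in the treated and 4 in the PBS members, Krt18 was listed at 0 in both, and Epcam stood at 0.142 and 0.875 CPM. Genes of mesenchymal cells were present, with Vim, an intermediate filament, at 2643 and 2502 CPM, Dcn, a matrix proteoglycan, at 1607 and 1915 CPM, and Pdgfra, a growth factor receptor, at 75.4 and 70.7 CPM. Rhox5, a homeobox gene often switched on in tumour lines, stood at 730 and 736 CPM. These genes were not particular to the members. Barcodes at or above the Ptprc limit held Vim at 2477 treated and 2064 PBS CPM and Rhox5 at 331 and 331 CPM. They held Dcn at 616 and 739 CPM and Pdgfra at 33.3 and 29.3 CPM. The 12 treated and 10 PBS barcodes removed for collagen held Rhox5 at 375 and 575 CPM. Markers of epithelial cells were thus nearly absent, and the barcodes are called by the rule that chose them.

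Depth was alike in the members of both libraries. They held medians of 28826 treated and 30997 PBS UMIs and 5076 and 5137 genes, and their summed UMIs were 14107736 and 26298781. The libraries share 39 barcode sequences, of which none is an interferon-state barcode in both. Doublet scores marked 24 treated and 76 PBS members. Endothelial markers reached 10 UMIs in 4 treated and 5 PBS members, B and plasma cell markers in 3 and 4, T and NK cell markers in 0 and 5, and neutrophil markers in none. Fibroblast and pericyte markers did so in 428 (92.04%) and 762 (94.9%) members, mostly through Dcn. Dendritic cell markers did so in 289 (62.1%) and 607 (75.6%) members, mostly through Bst2, which interferon also induces, and Fscn1. Macrophage and monocyte markers summed to a median of 137 CPM per treated member and 93.3 per PBS member, close to the medians of the other states (137.9 to 143.7 treated, 92.8 to 95.3 PBS). Their level over summed members was 298 treated and 205 PBS CPM against 206 and 199 CPM in the other barcodes, with single members reaching 30099 and 28966 CPM. None of the 15 markers was at 0 in either group. At least 1.5-fold higher in the state than in the other barcodes, beside 4.18% of all genes in the treated and 5.04% in the PBS library, were 4 and 1 of the 15 macrophage and monocyte markers and 4 of 6 and 2 of 4 measured endothelial markers. Summed endothelial markers stood at 47.07 treated and 24.75 PBS CPM in the state against 14.64 and 11.91 CPM outside it. In both libraries 2 of 4 dendritic cell markers (Bst2 and Clec9a) and 2 of 8 fibroblast and pericyte markers (Pdgfrb and Rgs5) were higher. The part of these cell types in the results was not tested. A set of 19 treated and 34 PBS members held 10 or more UMIs of endothelial, B and plasma, T and NK, neutrophil or red cell markers, or 20 or more of macrophage and monocyte markers, and is called barcodes holding markers of other cell types. Dendritic, fibroblast and pericyte markers did not enter that set. Without it and the like barcodes of the other states, the median log2 ratios of the state over the other Ptprc-low barcodes were 1.05 and 1.04 for antiviral genes and 1.92 and 1.98 for interferon-induced GTPases, against 1.10, 1.07, 1.94 and 1.96 with them.

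The state made up a smaller share of Ptprc-low barcodes in the treated library. It held 17.9% (465 of 2595, interval 16.5 to 19.4%) there and 24.8% (803 of 3234, 23.3 to 26.4%) in the PBS library, a ratio of 0.722 (0.642 to 0.810). Without barcodes holding markers of other cell types the shares were 17.7% and 24.7%. Interferon sums were lower in treated barcodes of all 4 states: the median was 574 against 708 CPM in the members, 194 against 275 in the matrix state, 111 against 142 in the hypoxia state and 79.1 against 111 in the cycling state. Ranks taken within each library instead gave 21.7 and 21.9%, because each library's own levels then set the ranks. Without Gbp2 in the sum the treated share was 14.4%, and the log2 ratio -0.85 against -0.47. Fewer cells in the state and less interferon RNA per cell cannot be told apart in a share set by ranks.

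**Figure D1:**
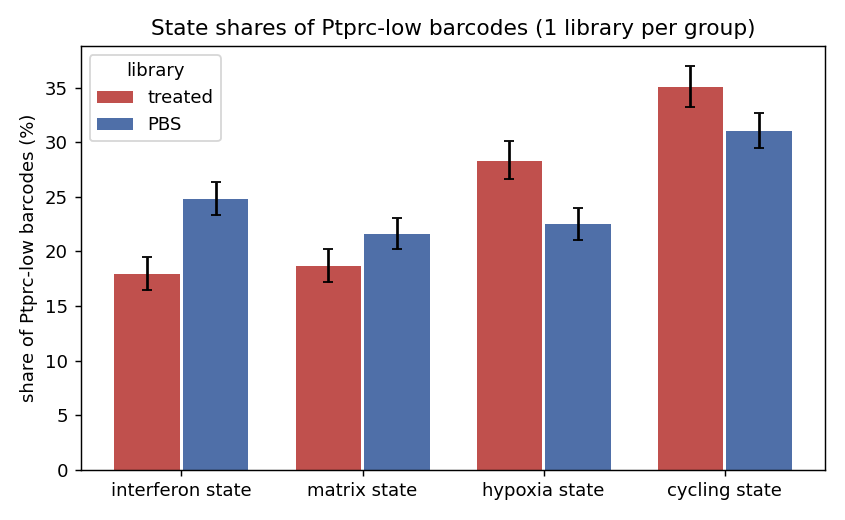
Share of Ptprc-low barcodes (%) in each of the 4 states, for the treated (red) and PBS (blue) library; bars start at 0 and error bars are exact 95% intervals of counting. The interferon state holds 17.9% of treated and 24.8% of PBS barcodes.

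Many barcodes lay close to the cut of the rule. Percentile ranks are spread nearly evenly by design, so margins between them cannot show whether the state is a separate group. The interferon rank of members exceeded their next rank by a median of 0.109, and 336 members lay within 0.05 of leaving the state while 336 other barcodes lay within 0.05 of entering it. The members just inside had a median interferon sum of 709 CPM and the barcodes just outside 489 CPM. Ranks of members began at 0.2045, and 59 members (28 treated, 31 PBS) had a rank under 0.5, kept because their other ranks were lower still. A rank of 0.9 or more was held by 466 members (153 treated, 313 PBS) and by 117 barcodes of other states. The second-highest rank of a member was most often matrix, in 184 treated (39.6%) and 404 PBS (50.3%) members.

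Genes outside the rule climbed along the interferon rank in both libraries. When all Ptprc-low barcodes were cut into 10 bands of interferon rank, the antiviral list went from 1415 CPM in the lowest to 6013 CPM in the highest band of the treated library, and from 1437 to 6086 CPM in the PBS library. The interferon-induced GTPases, which attack membranes around intracellular microbes, went from 55.5 to 1080 and from 62.6 to 1100 CPM. Major histocompatibility complex (MHC) class I and peptide loading genes spanned a narrower range, from 3348 to 6451 and from 3476 to 6718 CPM. Since the bands were cut on counts of the same barcodes, this describes the gradient and tests nothing.

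**Figure D2:**
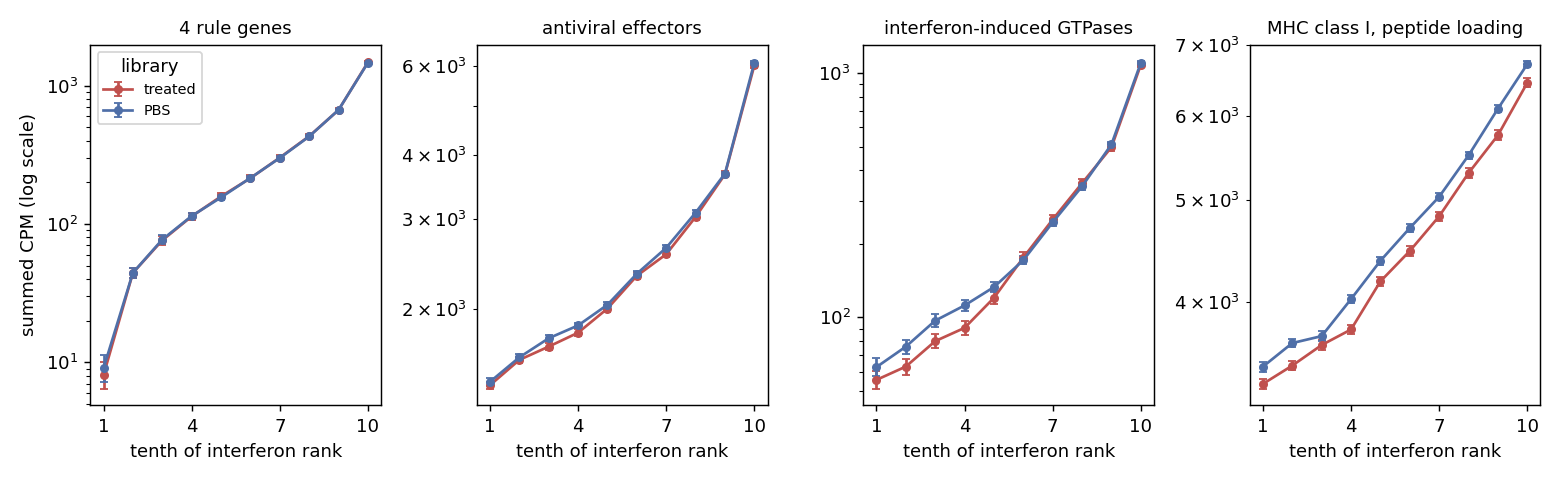
Summed CPM (log axis) of the 4 rule genes and of 3 gene lists against 10 bands of interferon rank, from lowest (1) to highest (10), for the treated (red) and PBS (blue) library; error bars are exact 95% Poisson intervals. The 3 lists climb in both libraries, most steeply for the GTPases, from 55.5 to 1080 CPM in the treated library.

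Few ligand UMIs were counted in these barcodes. Ifnb1, which encodes interferon beta, had 0 UMIs in treated members and 3 UMIs in a single PBS member. Ifng, which encodes interferon gamma, had 3 UMIs in 3 treated and 13 UMIs in 11 PBS members. In the whole libraries Ifng had 427 and 632 UMIs and Ifnb1 68 and 89. Ifna1, Ifna4, Ifnk, Ifnl2 and Ifnl3 were listed at 0 in the Ptprc-low barcodes. Ifnk lies wholly inside Mob3b and Ifnl2 and Ifnl3 wholly inside Samd4b in the annotation, so their zeros cannot be read as absence.

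Receptors and kinases differed by less than 1.5-fold between the state and the other Ptprc-low barcodes, whereas several transcription factors were higher in it. These ratios describe barcodes chosen on the same counts. A gene was called at a 1.5-fold difference with at least 100 UMIs over both groups, which held for 4.18% of 11403 genes in the higher and 3.05% in the lower direction in the treated library, and for 5.04% and 3.74% of 12107 genes in the PBS library. Ifngr1 stood at 80.7 treated and 96.6 PBS CPM in the state and 66.8 and 81.1 CPM in the other barcodes. Ifnar1, Ifnar2, Ifngr2, Jak1 and Jak2 had log2 ratios between -0.09 and 0.33. Stat2, a signal transducer of the type I response, stood at 61.1 and 74.8 CPM in the state against 24.9 and 27.1 CPM outside it, log2 ratios of 1.29 and 1.47. Irf9 (1.06 and 0.97) and Irf7 (1.23 and 1.67), factors of the same response, were past 1.5-fold in both libraries, as was Stat3 (0.63 and 0.63). In all, 5 of 16 measured genes of this list were higher in both libraries, beside 2.09% of all 11340 genes tested in both.

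Antiviral effectors formed the largest set of higher genes among the lists examined. Of 36 measured in both libraries, 29 were at least 1.5-fold higher in both and none was lower in either, with medians of 1.10 and 1.07 against 0.02 and 0.03 for all genes. Ifit1, which binds foreign RNA, stood at 123 and 146 CPM in the state and 22.02 and 25.03 CPM outside it. Rsad2, which encodes the antiviral enzyme viperin, stood at 153 and 114.5 CPM against 24.25 and 12.97 CPM. Both genes were higher in the state in each library, with log2 ratios of 2.48 and 2.54 for Ifit1 and 2.66 and 3.14 for Rsad2. The ubiquitin-like rule gene Isg15 stood at 102 and 161 CPM against 24.6 and 36.2 CPM, and the RNA-binding rule gene Ifit3 at 121 and 134 against 13.9 and 15.4 CPM. Ifit3b, a near-identical copy of Ifit3 whose reads may be divided between the genes, had ratios of 3.16 and 3.14. Ifitm3, which blocks virus entry at membranes, was abundant outside the state too, at 1418 and 1495 CPM in it and 915 and 941 CPM outside it. Zc3hav1, a zinc-finger RNA sensor, had the lowest ratio of the list in both libraries, 0.30 and 0.38.

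All 10 GTPases measured in both libraries were at least 1.5-fold higher in the state in both, with medians of 1.94 and 1.96. Iigp1 stood at 185 and 199 CPM against 30.7 and 42.8 CPM. Gbp2, the GTPase among the rule genes, stood at 494 and 471 CPM against 111 and 130 CPM. Gbp7 (105 and 99.2 CPM), Irgm1 (76.6 and 75.2 CPM) and Gbp3 (68.1 and 70.3 CPM) had ratios of 1.04 to 1.89. A further 7 GTPases, among them Igtp, Tgtp1 and Gbp4, were listed at 0 in the Ptprc-low barcodes, and 20 of the 28 list members listed at 0 lie wholly inside another annotated gene. Several GTPases are near-identical copies, so the division of counts among them is uncertain.

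The p200 genes, which encode DNA-binding proteins of the Ifi200 cluster, were higher in 7 of 10 measured cases in both libraries. Mndal stood at 159 and 170 CPM against 44.5 and 54.2 CPM, Ifi203 at 52.7 and 54.9 against 10.3 and 12.8 CPM, and Ifi211 at 33.8 and 38.7 against 7.26 and 7.78 CPM. Aim2, the cytosolic DNA sensor of the inflammasome, was not past the fold, at 0.50 and 0.45. Among nucleic acid sensors, 4 of 11 were higher in both libraries. They included Ifih1 (1.26 and 1.24), which senses long double-stranded RNA, Tlr3 (0.94 and 1.07), its endosomal counterpart, and Tmem173 (0.86 and 1.01), the adaptor known as STING. Mavs, Tbk1 and Cgas, which act up- or downstream of these sensors, had ratios between -0.05 and 0.17. Zbp1, the rule gene that senses Z-form nucleic acid and can start cell death, stood at 71.5 and 99.3 CPM.

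**Figure D3:**
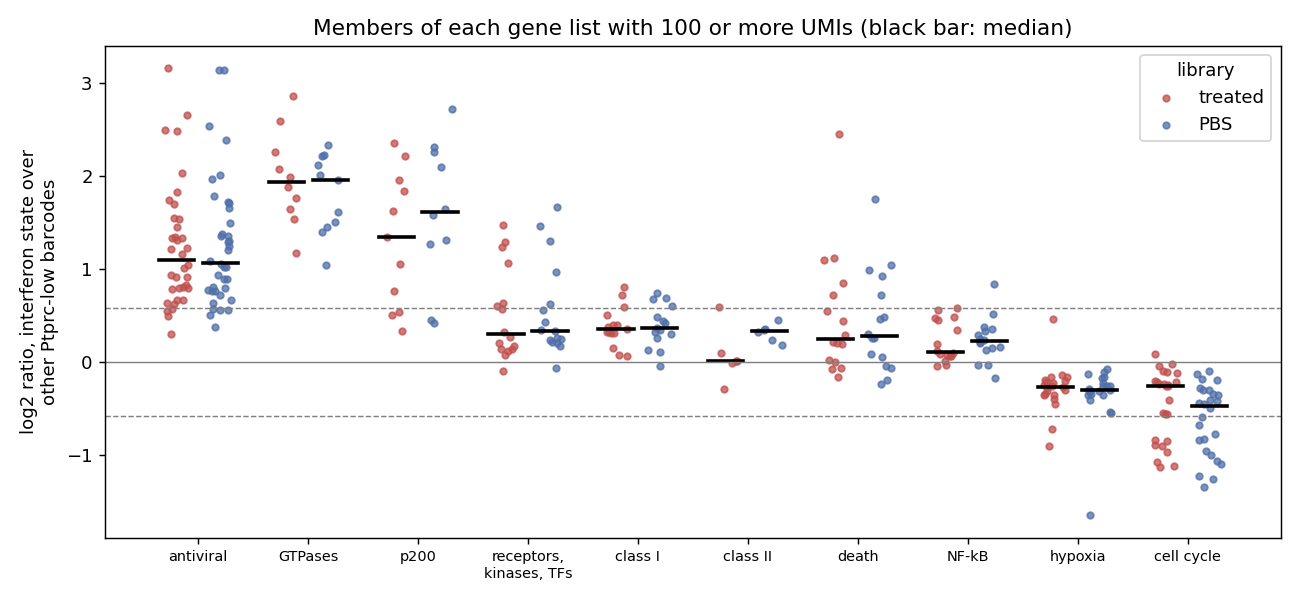
Log2 ratio of CPM in the interferon state over the other Ptprc-low barcodes for each list member with at least 100 UMIs, in the treated (red) and PBS (blue) library; black bars are medians and dashed lines mark 1.5-fold. Antiviral genes, GTPases and p200 genes lie mostly above the upper line in both libraries, with GTPase medians of 1.94 and 1.96.

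Of 15 measured MHC class I and peptide loading genes, 3 were at least 1.5-fold higher in the state in both libraries, and the list's medians were 0.35 and 0.36. H2-K1, a class I heavy chain, stood at 1704 and 1851 CPM in the state against 1296 and 1384 CPM outside it, ratios of 0.39 and 0.42. Nlrc5, the class I transactivator, had 0.80 and 0.75, and the peptide transporter Tap1 0.72 and 0.69. The third, the class Ib gene H2-T22 (0.59 and 0.68), was at 0.58 in the treated library, under the fold, without Scrublet-marked doublets, without barcodes holding markers of other cell types, or without its richest barcode. The light chain gene B2m was listed at 0 in all of these barcodes and lies wholly inside the annotated gene Patl2. Summed class I levels of the state (5099 treated, 5624 PBS CPM) were close to those of the matrix state (5138 and 5607 CPM). None of 6 measured class II genes passed the fold in both libraries (medians 0.01 and 0.33), with Ciita, their transactivator, at 0.283 and 0.266 CPM and Cd74 at 52.7 and 48.0 CPM in the members. Ubd, a ubiquitin-like protein that marks proteins for degradation, stood at 99.5 and 130 CPM against 36.4 and 56.2 CPM.

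Chemokines and checkpoint genes differed gene by gene. Cxcl9, which draws T cells through Cxcr3, stood at 87.8 and 56.4 CPM in the state against 12.3 and 8.64 CPM outside it, and Ccl5, another T-cell chemokine, at 224 and 225 against 61.0 and 63.6 CPM. Cxcl9 and Ccl5 were higher in both libraries, the only ones of 8 measured chemokines. Cxcl2, a neutrophil chemokine, was past the fold in opposite directions (1.08 treated, -1.40 PBS), as were 0.185% of genes, and stood at -0.38 and -0.37 without barcodes holding markers of other cell types. Cxcl10 was listed at 0 and lies wholly inside Art3 in the annotation. Cd274, the ligand of the inhibitory receptor PD-1, stood at 34.8 and 35.7 CPM against 13.3 and 12.1 CPM, ratios of 1.39 and 1.56. Serpina3g (1.28 and 1.35), a protease inhibitor, and Tnfrsf14 (0.79 and 0.71), a ligand of Btla, were also past the fold. Among death genes, Tnfsf10, the death ligand TRAIL, had 2.46 and 1.75, and the death receptor Fas 0.85 and 0.92. The inflammatory caspases Casp1 and Casp4 had 1.10 and 0.99, and 1.12 and 1.04. These were picked from a list of 18 genes. Its summed level was 942 treated and 872 PBS CPM in the state, under the 996 and 914 CPM of the matrix state. Usp18, which damps type I signalling, had 1.60 and 1.43, the only feedback gene of 6 measured past the fold in both libraries.

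Counts of some of these genes were concentrated in few members. The 10 members with the most Ccl5 held 60.2% of its UMIs in the treated and 50.7% in the PBS library. The 10 treated members with the most Rsad2 held 60.1% of its 2159 UMIs and the 10 PBS members 37.6% of 3011 UMIs, and for Cxcl9 these shares were 46.2% and 32.2%. Gbp2 was spread evenly by comparison, with 10.8% and 8.43% in the top 10 and a UMI in 99.1% and 98.3% of members. As a rule gene it chose these members, so its spread was partly set by the rule. It gave 6963 of the 11108 treated and 12381 of the 22765 PBS UMIs of the interferon sum. Without Gbp2 in the sum 72.3% of members stayed in the state. Among the 20 members highest in Rsad2, of 465 treated and 803 PBS members, 12 and 8 were also among the 20 highest in Ifit1. For Rsad2 and Cxcl9 these counts were 2 and 2, and the other gene pairs examined shared 2 to 7 members. The overlap expected of unrelated genes was not computed. Of the 117 treated members highest in the antiviral sum, 69 (58.97%) were among the 117 highest in the GTPase sum, and in the PBS library 124 of 201 (61.7%) were. These top sets held 117 of all 465 treated and 201 of all 803 PBS members.

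At an equal depth of 10000 UMIs, detection was highest in the interferon state and next highest in the matrix state for the 7 genes examined, except Rsad2 in the PBS library, where the hypoxia state came next. Cxcl9 was detected in 18.1% of treated and 15.6% of PBS members (27.1% and 24.2% at full depth), in 13.02% and 10.03% of matrix-state barcodes, and in 2.31% and 2.61% of hypoxia-state barcodes. Iigp1 was detected in 51.4% and 56.3% of members and in 29.96% and 39.83% of matrix-state barcodes. Ubd was detected in 43.01% and 52.05% of members and in 38.22% and 46.7% of matrix-state barcodes, with overlapping intervals in both libraries. Cd274 was detected in 23.01% and 21.5% of members and in 8.67 to 12.6% of barcodes of the other states. As background, barcodes with 3 or more Cd79a UMIs, a B-cell gene, held Cxcl9 in 2.21% and 1.31%, Iigp1 in 2.21% and 2.61% and Cd274 in 13.2% and 13.1% of cases, at median depths of 1453 and 1712 UMIs. These barcodes were shallower and were not thinned, so the shares are set side by side only.

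**Figure D4:**
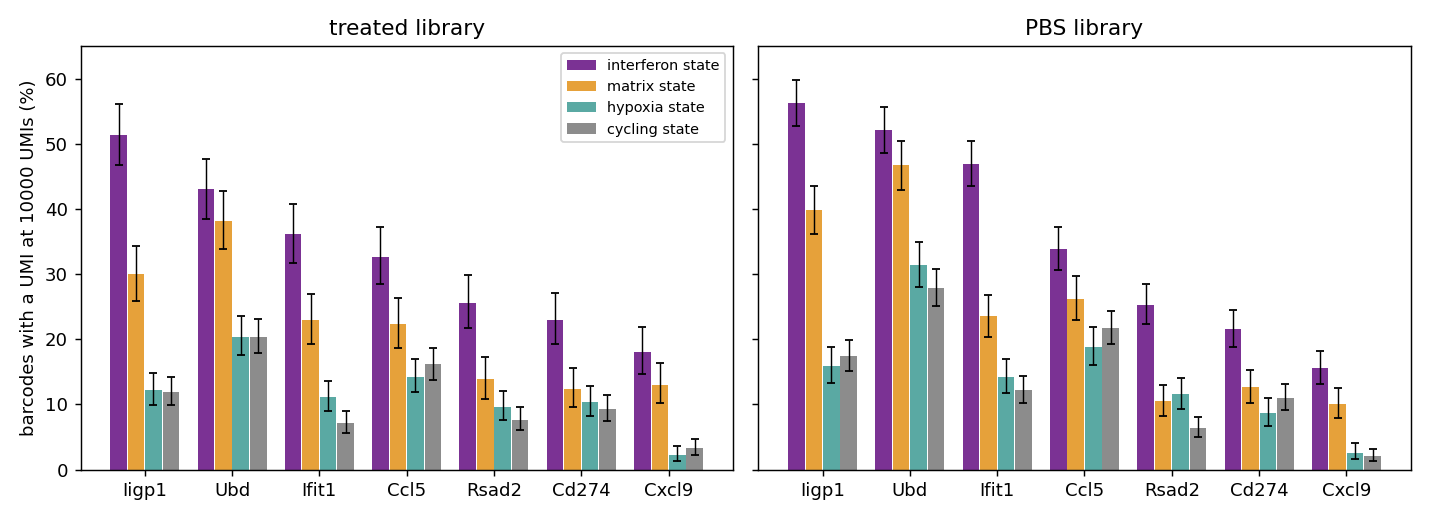
Share of barcodes (%) with at least 1 UMI of each gene after thinning to 10000 UMIs, for the treated (left) and PBS (right) library, by state; error bars are exact 95% intervals of counting. Interferon-state bars are the highest for all 7 genes in both libraries, with Cxcl9 at 18.1% and 15.6%.

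Genes of the hypoxia and cycling rules were among the 159 genes at least 1.5-fold lower in the state in both libraries, whereas none of the 4 matrix rule genes was. Ero1l, a hypoxia-induced oxidase and rule gene, stood at 43.5 and 48.5 CPM against 132 and 145 CPM. Of 26 cell cycle genes, 8 were at least 1.5-fold lower in both libraries, beside 1.4% of the 11340 genes tested in both, such as the mitotic kinases Aurkb (-1.14 and -1.26) and Aurka (-1.08 and -1.23). Replication genes Mcm6 and Pcna had ratios of -0.10 to -0.35. Of 21 hypoxia and glycolysis genes 1 was lower in both libraries, Car9, a carbonic anhydrase with under 3 CPM in every group. The rules forced part of this, since a barcode high in cycling or hypoxia sums was assigned elsewhere. Summed cell cycle genes stood at 2486.9 treated and 2129.5 PBS CPM in the interferon state. They stood at 2217.1 and 2066.4 in the matrix, 2605.8 and 2502.7 in the hypoxia and 4146.5 and 4053.8 CPM in the cycling state. Summed hypoxia rule genes stood at 107 and 123.2 CPM in the interferon state. They stood at 133.5 and 116.6 in the matrix, 103.5 and 108 in the cycling and 611.9 and 772.7 CPM in the hypoxia state.

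Between the libraries, few interferon genes of the members differed by 1.5-fold. In the members, 2.47% of 10370 genes were at least 1.5-fold higher and 3.22% at least 1.5-fold lower in the treated library, and the median over all genes was 0.02. Among 37 antiviral genes none was higher, 1 was lower (Oas2, an RNA-sensing synthetase, at 7.37 treated and 11.5 PBS CPM) and the median was -0.21. The GTPases had a median of -0.25 with 0 of 10 past the fold, class I genes -0.19 with 1 of 15 lower, and p200 genes -0.06 with 0 of 10 past the fold. In the other Ptprc-low barcodes, where 2.76% of 12630 genes were higher and 3.14% lower, these medians were -0.25, -0.48 and -0.15, and that of the p200 genes was 0.42 with 2 of 11 higher. Of the rule genes, Isg15 had -0.66 (-0.75 to -0.58), Zbp1 -0.47 (-0.58 to -0.37), Ifit3 -0.16 and Gbp2 0.07. Isg15 was the only rule gene past the fold in the members, and these ratios lie downstream of a rule that used these genes. The rule ranked both libraries together and so chose members of like interferon rank in each. Small differences in other interferon genes of the members are therefore partly set by that choice. With ranks within each library the antiviral and GTPase medians were lower, as given in the last section.

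Of 8 measured chemokines, 4 were at least 1.5-fold higher in treated members, beside 2.47% of all 10370 genes tested. Cxcl9 was higher in treated members, at a log2 ratio of 0.64 (0.53 to 0.75), and had 0.51 in the other barcodes. In members it was under the fold at 0.57 without the barcode holding the most Cxcl9 in each group. It was at 0.55 without barcodes holding markers of other cell types. Rsad2 had 0.42 (0.34 to 0.50) in members and 0.90 in the other barcodes. In members its ratio was 0.25 without the barcode holding the most Rsad2 in each group. Without barcodes holding markers of other cell types it was 0.52. Cd274 (-0.04) and Ccl5 (-0.01) were level. Of the macrophage and monocyte markers 6 of 14 were at least 1.5-fold higher and 1 lower in treated members, with a median of 0.51, and of the endothelial markers 5 of 7 were higher, with a median of 1.01. Their part in these values was not tested.

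The 10 highest ratios among genes at 20 CPM or more in the higher group included inflammatory and other genes. Cxcl2, at 19.9 treated and 2.21 PBS CPM, lay just under that level with a higher ratio, 3.17, which was 1.58 without barcodes holding markers of other cell types. Cxcl1, a neutrophil chemokine, stood at 224 treated and 75.5 PBS CPM in the members, a log2 ratio of 1.57 (1.48 to 1.65), and at 185 and 79.9 CPM in the other barcodes. Tnfaip3, an inhibitor of NF-kB signalling, stood at 43.0 and 20.5 CPM, 1.07 (0.90 to 1.24), and had 0.84 in the other barcodes. Heph, a copper-dependent iron oxidase, stood at 27.7 and 8.14 CPM, and Otx2os1 and Taf1c had ratios of 1.74 and 1.70. Otx2os1 and Taf1c overlap a neighbouring gene at their 3' ends, so their counts are uncertain. Ddah1, Adgrd1 and Naaladl2 had ratios of 1.13 to 1.14 in the members and 1.12 to 1.16 in the other barcodes. Rgs1 (1.21) and Tgfbi (1.23) stood at 0.997 and 1.06 without barcodes holding markers of other cell types. Outside the state Rgs1 and Tgfbi had ratios of 0.52 and 0.66.

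The 10 lowest ratios at that level included 2 heat shock genes, the only ones of 10 measured that were past the fold. Hspa1b, an inducible chaperone, stood at 5.46 treated and 23.8 PBS CPM in the members, -2.13 (-2.49 to -1.78), and at 4.36 and 18.6 CPM outside the state. Dnajb1, its co-chaperone, had -0.91 in the members and -0.62 in the other barcodes. Hspa8, a constitutive chaperone, had -0.10 in the members. Pcdh9, a protocadherin, stood at 30.4 and 69.4 CPM (-1.19), and at 14.7 and 29.5 CPM (-1.01) in the other barcodes. It was also more than 2-fold higher in the state than outside it in each library, with log2 ratios of 1.05 and 1.24. Only 16.56% of treated and 20.67% of PBS members held a Pcdh9 UMI, and 10 members held 50.12% and 41.45% of its UMIs. H19, a rule gene of the matrix state, had -0.74. Sema5a, St3gal3, Dkk2 and Lsmem1 lay between -0.89 and -0.77 in the members and between -0.46 and -0.18 in the other barcodes. For Ctla2a, 1 PBS member held 244 of 574 UMIs, and 10 members held 96.5% of them, so its ratio of -1.32 rests on few barcodes, and it had under 100 UMIs without barcodes holding markers of other cell types.

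**Figure D5:**
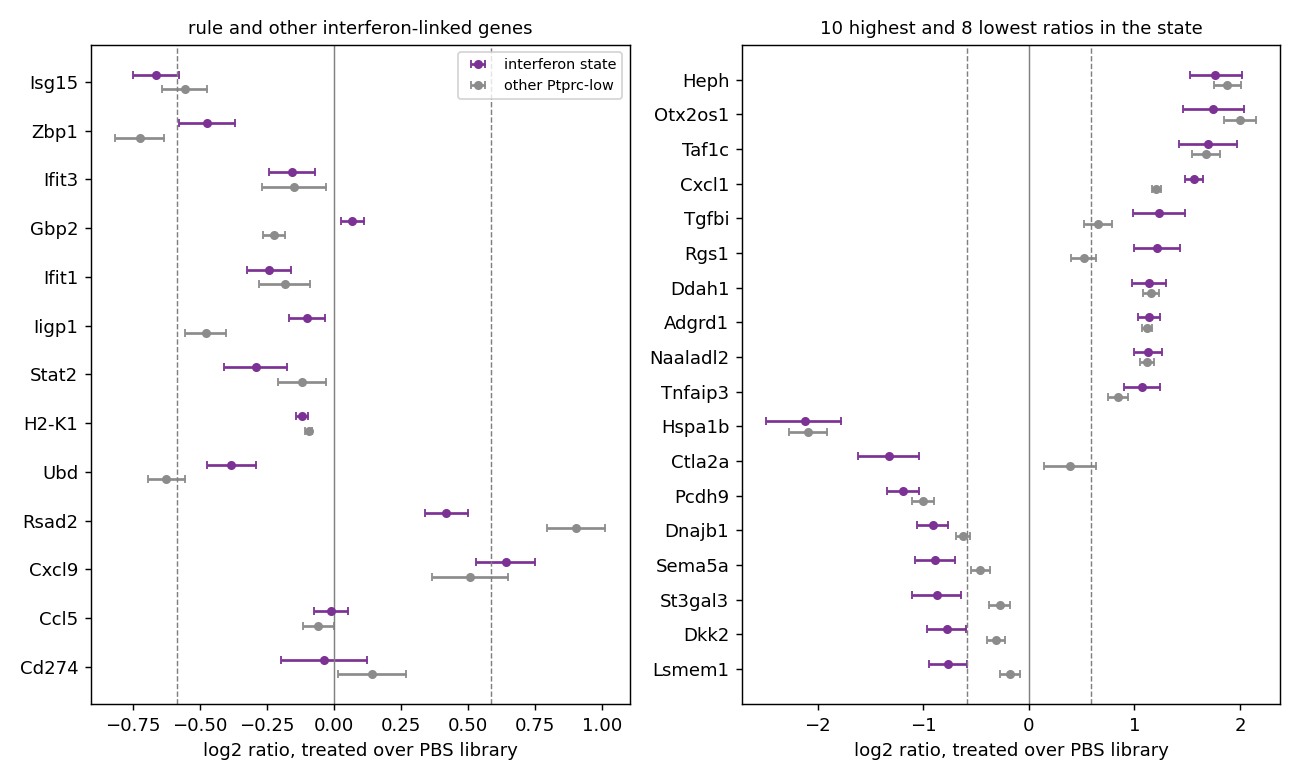
Log2 ratio of CPM in the treated over the PBS library for interferon-linked genes (left) and for the 10 highest and 8 lowest ratios (right), in the interferon state (purple) and the other Ptprc-low barcodes (grey); error bars are exact 95% intervals of counting and dashed lines mark 1.5-fold. Isg15 lies at -0.66 and Cxcl9 at 0.64 in the state.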

How the data were processed

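The values the authors deposited are UMI counts per gene and barcode, whole numbers that were not normalized, for 32285 genes in 2 libraries with totals of 115576457 (treated) and 145045294 (PBS) UMIs. Per the labels' protocols the MobiCube 3' kit was used, and per the submitters' processing notes STAR and mm10; the sources used here give no version, counting program, strand setting or annotation. No columns of other samples were present.

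UMIs were summed over barcodes of each group and given as CPM of the sum, with exact Poisson intervals, exact Clopper-Pearson intervals for shares and exact conditional binomial intervals for ratios (scipy 1.17.1). A gene at 0 took a floor of 3 counts. No test was possible with 1 library per group. Scrublet (scanpy 1.11.5), set to 0.8% per 1000 barcodes, marked 694 treated and 569 PBS barcodes as doublets, which were kept except in one alternative. Gene positions are from GENCODE M21 and promoters from RefSeq (GRCm38.p6). Statistics were tested on simulated data.

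The members and the 36 gene lists were chosen with earlier results of these data known. Named genes are the rule genes, up to 4 members with the highest levels and up to 4 with the largest ratios of each list, the 12 highest and 8 lowest ratios of the state (ranked by the library nearer 1, at 20 CPM or more in the higher group), and the 10 highest and 10 lowest treated over PBS ratios; some are described only by range or left out, and other list members are named as background, chosen after their values were seen. Alternatives changed ranks, filters, thinning, weighting and centring. The set without barcodes holding markers of other cell types (dendritic, fibroblast and pericyte lists not used), and the values without the barcode richest in a gene, were chosen after seeing the data. Some results are not reported here.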

Additional observations from a re-analysis of the deposited data

Results flagged for a closer look

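Cxcl2, a neutrophil chemokine, differed between the libraries in direction. Its log2 ratio of the state over the other Ptprc-low barcodes was 1.08 in the treated library (19.9 against 9.40 CPM) and -1.40 in the PBS library (2.21 against 5.83 CPM), and the difference between the libraries was not tested. Without barcodes holding markers of other cell types the ratios were -0.38 and -0.37. Over all 11340 genes tested in both libraries, 21 (0.185%) were past 1.5-fold in opposite directions.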

How the results depend on the processing

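No paired analysis was possible because each group has 1 library. The lower share of the state in the treated library rests on ranking both libraries together. With ranks within each library the shares were 21.7% and 21.9% and the log2 ratio -0.00843, and without Gbp2 in the sum the treated share was 14.4% and the log2 ratio -0.85, against -0.47. The other alternatives left the shares and their ratio within their counting intervals. Counts of genes past 1.5-fold moved with the minimum count, which changes how many genes are tested: at 20 UMIs 1255 were higher and 1111 lower in the state in the treated library, 1433 and 1134 in the PBS library, and 776 higher and 1084 lower in treated members. At 500 UMIs these were 176 and 134, 246 and 213, and 64 and 66. After thinning to 10000 UMIs 349 genes were higher in the PBS library and 188 lower in treated members. With members of rank 0.9 or more, 1047 were higher and 846 lower in the treated library and 1148 and 1050 in the PBS library. The median ratios of the state were then 1.76 and 1.78 for antiviral genes and 2.85 and 2.62 for GTPases, and Postn (0.072) and Car9 (0.36) changed sign in the treated library from -0.92 and -0.90. Treated over PBS medians were -0.40 for antiviral genes and -0.58 for GTPases with ranks within each library, and -0.31 for antiviral genes without any Ptprc UMI; the cause was not tested. Cxcl2 went to -0.38 without barcodes holding markers of other cell types. That setting took 11 of 266 gene values under the fold. Depth limits genes under 100 UMIs, and reads of genes inside or beside another gene cannot be told apart here.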
